A study of Mus musculus with 244 samples.

Results

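The genes described here are 6 feedback inhibitors of kinase signalling: the Sprouty genes *Spry1*, *Spry2* and *Spry4*, and the dual specificity phosphatase genes *Dusp1*, *Dusp4* and *Dusp6*. They are 6 of the 25122 genes in the count table of single oocytes and somatic cells from mouse follicles. The 6 are a named family selected on their counts in oocytes and somatic cells, which were already known, so their levels are given as a description and without a test.

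Growth factor receptors with tyrosine kinase activity, such as KIT on the oocyte and the FGF and EGF receptors, switch on a chain of proteins that ends in the kinase ERK. ERK in turn raises transcription of its own inhibitors. Sprouty proteins act near the receptor and on RAF, and dual specificity phosphatases remove the activating phosphates from ERK and related kinases. In the ovary, KIT ligand made by granulosa cells acts on the oocyte, and FGF8 made by the oocyte acts on the granulosa cells around it.

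Cells were gathered over several collections, and an isolation of follicles used 8 to 12 ovaries of CD-1 mice, which are outbred, on postnatal day 6. The stage of the follicle was primordial, transitioning, primary or secondary. Somatic cells were freed from the oocyte with Accutase. The table holds 59 oocytes, on plates 1, 2, 4, 5 and 6 (13, 8, 15, 10 and 13 cells), and 37, 32, 22, 16, 66 and 12 somatic cells on plates 1 to 6. SMART-Seq2 libraries, 1 per cell, read polyadenylated RNA along its length and carry no molecular identifiers, so PCR copies were counted separately. No animal is named for a cell. Each cell type and stage of a plate was therefore 1 sample, cells are not replicates of a stage, and no p-value is given. Total counts per cell ran from 5440.2 to 801258 in oocytes (median 96024) and from 5150.2 to 409310 in somatic cells (median 72279).

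Each plate lists its own genes, and a gene that a plate does not list has no value there. *Spry2*, *Spry4* and *Dusp4* are listed on all 6 plates, *Dusp6* on plates 1 to 5, *Spry1* on plates 2, 4, 5 and 6, and *Dusp1* on plate 5 only. Plate 3 holds no oocytes. Levels are counts per 1000000 counts of all genes on the plate (CPM), from the counts summed over the cells of a group, and were compared within plates only. Intervals are 95% intervals for counting error and do not cover differences between cells or animals.

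Shares of counts on markers are given for the labelled groups. The authors had removed oocytes scoring high for somatic genes, and somatic cells scoring high for oocyte genes. Many of those genes are among the markers used here, so low shares in the other cell type were in part set beforehand. They are therefore no independent check of the labels. The median share of counts on granulosa markers was 0.404 to 3.48% in the groups of somatic cells and 0 to 0.0330% in the groups of oocytes. Reads of at least 3 stroma markers, from a list of 8 of which each plate lists 6 to 8, were present in 24 somatic cells. They were 8 of 21 primordial, 3 of 19 primary and 4 of 26 secondary cells of plate 5, 5 of 32 primary cells of plate 2, 3 of 19 primordial cells of plate 1 and 1 of 22 cells of plate 3. The median share on oocyte markers was 0.113% in primordial somatic cells of plate 5 and 0.430% in secondary somatic cells of plate 6, where *Spry1* and *Spry4* were at 0. The only primordial oocyte of plate 5 stood apart from the other 9 oocytes there. Granulosa markers took 0.0330% of its counts, against 0 to 0.0149% in the others, and oocyte markers 0.392%, against 0.959 to 2.52%. Ratios of plate 5 oocytes to somatic cells are given with and without it.

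The genes lie apart in the genome. In GENCODE M21 on GRCm38, *Spry1* is at chr3:37639947-37644598 on the plus strand, *Spry2* at chr14:105891947-105896819 on the minus strand, *Dusp1* at chr17:26505590-26562128 on the minus strand, *Dusp4* at chr8:34807297-34819894 on the plus strand and *Dusp6* at chr10:99263231-99267489 on the plus strand. *Dusp1* overlaps *Ergic1* on the opposite strand, and as the libraries do not mark the strand, reads of the overlap could belong to either gene.

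RefSeq promoter windows on GRCm38.p6 matched 4 of the 6 genes, and 3 are shown, as 250 bases before the RefSeq start read 5′ to 3′ on its own strand. *Spry1* stands for the genes with most counts in oocytes, *Dusp1* and *Dusp6* for those with most counts in somatic cells. Capitals mark the matches to 8 motifs searched on both strands. The windows are at chr3:37639697-37639946 on the plus strand for *Spry1*, chr17:26508473-26508722 on the minus strand for *Dusp1* and chr10:99262981-99263230 on the plus strand for *Dusp6*. The GENCODE span of *Dusp1* includes a longer transcript that begins further upstream, so its window lies inside that span.
Spry1: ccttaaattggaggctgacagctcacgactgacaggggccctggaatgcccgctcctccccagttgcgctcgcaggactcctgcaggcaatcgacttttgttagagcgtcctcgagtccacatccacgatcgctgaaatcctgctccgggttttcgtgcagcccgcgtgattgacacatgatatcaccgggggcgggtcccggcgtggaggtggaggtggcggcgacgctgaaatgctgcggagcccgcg
Dusp1: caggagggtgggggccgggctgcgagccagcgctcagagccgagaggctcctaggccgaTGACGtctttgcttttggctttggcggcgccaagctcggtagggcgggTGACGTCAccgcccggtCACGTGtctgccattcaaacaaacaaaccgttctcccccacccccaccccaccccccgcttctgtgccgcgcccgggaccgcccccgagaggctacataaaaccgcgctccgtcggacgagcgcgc
Dusp6: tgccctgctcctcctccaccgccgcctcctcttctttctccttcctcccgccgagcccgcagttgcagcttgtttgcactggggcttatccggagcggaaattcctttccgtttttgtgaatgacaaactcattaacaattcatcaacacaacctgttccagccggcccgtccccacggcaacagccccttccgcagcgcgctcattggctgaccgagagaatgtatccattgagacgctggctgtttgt

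The *Dusp1* window held a full cyclic AMP response element (TGACGTCA) which 1.55% of the 32851 RefSeq windows hold. Its core (TGACG, in 17.8% of windows, with a match on each strand inside the full element) was found once more further upstream, and an E-box (CACGTG, in 6.02% of windows) lay between the full element and the start. The other motifs were the TATA box (TATAAA), an ETS site (CCGGAAG), the AP-1 site (TGANTCA), the NOBOX element (TAATTG) and the CArG box, held by 12.4, 6.91, 6.75, 7.17 and 1.47% of windows. None of the 8 motifs was found in the windows of *Spry1*, *Spry2* and *Dusp6*. GC content was 62.4% for *Spry1* and 62.4% for *Spry2*, 68.4% for *Dusp1* and 56.4% for *Dusp6*, against a median of 52.4% over all windows. A match is a stretch of letters and was not tested as a binding site.

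The first comparison asked which cell type of the follicle carries the transcripts. Oocytes and somatic cells differ in stage on plates 1, 2, 5 and 6. Plate 2 sets 7 primordial and 1 primary oocytes against 32 primary somatic cells. Plate 6 sets 3 transitioning, 8 primary and 2 secondary oocytes against 1 transitioning and 11 secondary somatic cells. Stage and cell type cannot be told apart in these ratios, and ratios within the same stage are given where possible. *Spry1* and *Spry4* had counts in most oocytes of plates 5 and 6 and in few somatic cells, while *Dusp6* had counts in 2 oocytes and *Spry2* in none, and both had counts in a part of the somatic cells on 5 plates. *Dusp4* was sparse everywhere. Over all plates that list the gene, counts of *Spry1* were found in 40 of 46 oocytes (86.96%, exact binomial interval 73.7 to 95.1%) and 6 somatic cells (4.76%, 1.77 to 10.1%). *Dusp6* went the other way, with 2 of 46 oocytes (4.35%, 0.531 to 14.8%) and 72 somatic cells (41.6%, 34.2 to 49.3%). *Spry2* was in 0 of 59 oocytes (0 to 6.06%, and up to 5.085% by the limit of 3 cells for a count of 0). It was in 25 somatic cells (13.5%, 8.94 to 19.3%). These shares are at full depth, which differed between the groups. Thinned to 12000 counts per cell, *Spry1* was in 2 of 8 oocytes of plate 2 and 5 of 14 on plate 4. On plates 5 and 6 it was in 9 of 10 and 12 of 13 oocytes. Somatic cells so thinned had it in 2 of 31 on plate 2 and 4 of 65 on plate 5. None had it on plates 4 and 6. Cells with fewer counts were left out.

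**Figure D1:**
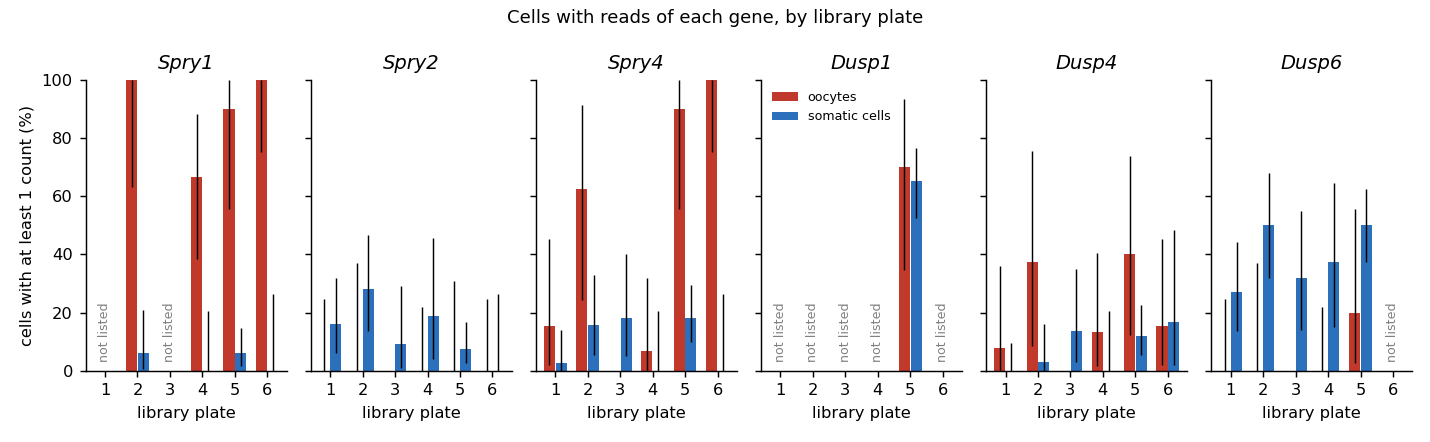
Share of cells with at least 1 count of each gene (y axis, percent) on each library plate (x axis), in oocytes (red) and somatic cells (blue), with exact binomial 95% intervals. Plate 3 holds no oocytes, and plates that do not list a gene are marked. At full depth *Spry1* was found in 40 of 46 oocytes and 4.76% of somatic cells, *Dusp6* in 2 of 46 oocytes and 41.6% of somatic cells.

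A level was called higher or lower where the ratio of CPM was at least 2-fold with at least 5 CPM in a group. Of 24 pairs of a gene and a plate, 18 could be compared in this way, and oocytes were higher in 6 and lower in 10. On plate 1, 3 of 3 genes were lower in oocytes, and 43.2% of all genes compared there were lower. On plate 2, 2 of 4 were lower and 1 was higher, against 60.9 and 23.2% of all genes. On plate 4, 1 of 2 was lower and 1 higher, against 54.2 and 26.9%. On plate 5, 3 of 6 were lower and 2 higher, against 47.8 and 21.6%. On plate 6, 1 of 3 was lower and 2 higher, against 52.7 and 22.3%. More genes were lower than higher in oocytes on every plate, and the median log2 ratio of all genes lay between -2.36 on plate 2 and -0.56 on plate 1.

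Within the same stage, 10 of 19 pairs could be compared, and oocytes were higher in 3 and lower in 7. Among primordial cells of plate 1, *Spry2* and *Dusp6* were lower and none was higher, against 39.3 and 40.3% of all genes. Among primary cells there *Spry4* was lower, against 39.5% lower and 36% higher of all genes. On plate 4, where all cells are transitioning, *Spry1* was higher and *Dusp6* lower. Among secondary cells of plate 5, *Spry1* and *Spry4* were higher, against 18.8% of all genes, and *Dusp1*, *Dusp4* and *Dusp6* lower, against 49.8%. The log2 ratio of *Dusp4* there, from 3 and 34 counts, was -1.29 (-3.64 to 0.38), which spans 0.

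**Figure D2:**
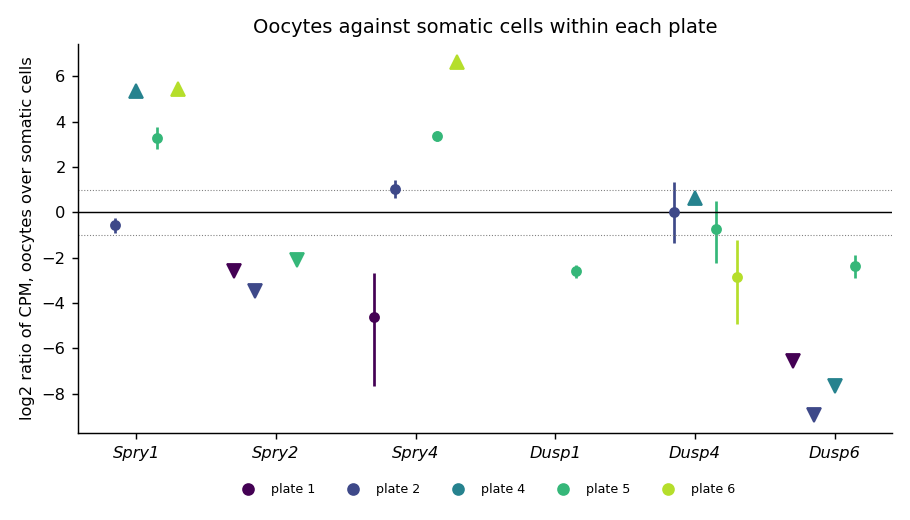
Log2 ratio of CPM, oocytes over somatic cells (y axis), for each gene (x axis) on each plate that holds at least 5 cells of both types (colours). Circles are values with 95% counting intervals, triangles pointing up are lower bounds and triangles pointing down are upper bounds, where a group has 0 counts; dotted lines mark a 2-fold ratio. *Dusp6* lies at -2.39 or below on 4 plates, and *Spry1* lies at 3.26 or above on plates 4, 5 and 6 but at -0.58 on plate 2.

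*Spry1*, an inhibitor of FGF and other receptor signals, was found in oocytes of all stages on the plates that list it. In the 7 primordial oocytes of plate 2 single cells ran from 5.98 to 119.4 CPM with a median of 27.6 CPM, and all 7 had counts. The 15 transitioning oocytes of plate 4 had a median of 30.9 CPM, and 10 had counts. The 4 primary oocytes of plate 5 had 263.9, 167.6, 128.4 and 297.5 CPM. The 5 secondary oocytes there had 199.6, 175.5, 178.4, 162.4 and 271.9 CPM, so the stages overlapped, and the ratio of secondary to primary was -0.21 (-0.78 to 0.34) on the log2 scale. On plate 6 the 3 transitioning oocytes had 168.2, 272.8 and 507.9 CPM, the 8 primary oocytes 71.3 to 503.6 CPM (median 263.1 CPM) and the 2 secondary oocytes 166.7 and 451.8 CPM. These groups overlapped as well, at summed levels of 270, 282 and 299 CPM. The levels on plates 2 and 4 cannot be set against those of plates 5 and 6, since each plate has its own list of genes.

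In somatic cells *Spry1* was at 0 counts in all 16 cells of plate 4 and all 12 cells of plate 6. The log2 ratio of oocytes to somatic cells was at least 5.34 on plate 4 and at least 5.42 on plate 6, with a group at 0 set at a floor of 3 counts. On plate 5 it was 3.26 (2.78 to 3.74), at 165.8 and 17.4 CPM, and 3.56 without the primordial oocyte, which had no *Spry1* counts. On plate 2 somatic cells were higher, at 57.3 CPM against 38.3 CPM in oocytes, a log2 ratio of -0.58 (-0.91 to -0.26). The somatic counts of plate 2 came from 2 of 32 cells, 81.5% of them from 1 cell, and without the cell with most counts of each group the ratio was 1.33. It also turned to 0.61 with TMM factors, 0.79 with DESeq2 size factors and 0.47 with cells thinned to 12000 counts, and was -0.01 by the mean CPM of single cells.

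The somatic counts of *Spry1* stood in cells with stroma markers. On plate 2 the 5 somatic cells with at least 3 stroma markers held every count, at 329 CPM (285 to 378), and the other 27 cells held 0. On plate 5 the 15 such cells held 54 counts in 3 cells, at 70.3 CPM (52.8 to 91.7), and the other 51 cells 3 counts in 1 cell, at 1.19 CPM (0.246 to 3.48). With these cells left out, oocytes were higher in *Spry1* on plate 2 as well, by at least 5.20 on the log2 scale, and by 7.12 on plate 5. *Amh*, a granulosa marker, was at 1.65 CPM in the 5 cells of plate 2 and 247 CPM in the other 27, and at 272 and 1537 CPM on plate 5. Leaving these cells out was chosen after the data were seen.

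*Spry4*, a relative of *Spry1* that also restrains RAS and RAF signals, was higher in secondary than in primary oocytes within plates 5 and 6. Oocytes of the same stage also differed widely between plates. Primary oocytes were at 0.85 CPM on plate 1, 512.3 CPM on plate 5 and 202.7 CPM on plate 6. Values of different plates therefore do not show a difference between stages. *Spry4* was at 0 counts in the 5 primordial oocytes of plate 1 and at 1 count in the 7 primary oocytes there, and 1 of 15 transitioning oocytes of plate 4 had counts. In primordial oocytes of plate 2, 4 of 7 had counts, with values of 42.9, 115.1, 104.9 and 51.9 CPM, and the other 3 were at 0. On plate 5 the 4 primary oocytes had 325, 671, 867 and 281 CPM. The 5 secondary oocytes had 549, 1107, 2274, 1028 and 505 CPM, which overlaps the primary oocytes, and the primordial oocyte was at 0.

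On plate 6 the secondary oocytes stood clear of all others in *Spry4*. The 2 secondary oocytes had 3404 and 3098 CPM, against 28.01 to 529.9 CPM in the 8 primary (median 77.4 CPM) and 61.2, 306.8 and 181.4 CPM in the 3 transitioning oocytes. Secondary over primary oocytes gave a log2 ratio of 1.24 (0.95 to 1.53) on plate 5 and 4.01 (3.72 to 4.31) on plate 6, and 4.20 (3.63 to 4.81) for secondary to transitioning oocytes on plate 6. Leaving out the oocyte with the most counts of each group gave 1.03 on plate 5 and 4.88 on plate 6, where 1 secondary oocyte was then left. Genes at least 2-fold higher in secondary oocytes made up 9.91% of those compared with primary oocytes on plate 5, and 8.26 and 10.9% of those compared with primary and transitioning oocytes on plate 6, where 19.5, 27.5 and 34.5% were lower. *Spry4* did not differ by 2-fold between primary and transitioning oocytes of plate 6, at a log2 ratio of 0.19 (-0.42 to 0.85), and neither of the 2 genes that could be compared, *Spry1* and *Spry4*, was called there, against 9.81% higher and 13.2% lower of all genes. With totals over the genes listed on every plate, the ratio of plate 5 was 0.98, which is no longer a call. *Spry1* was not called in any of these comparisons. Groups of fewer than 5 oocytes were compared only after the data were seen.

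**Figure D3:**
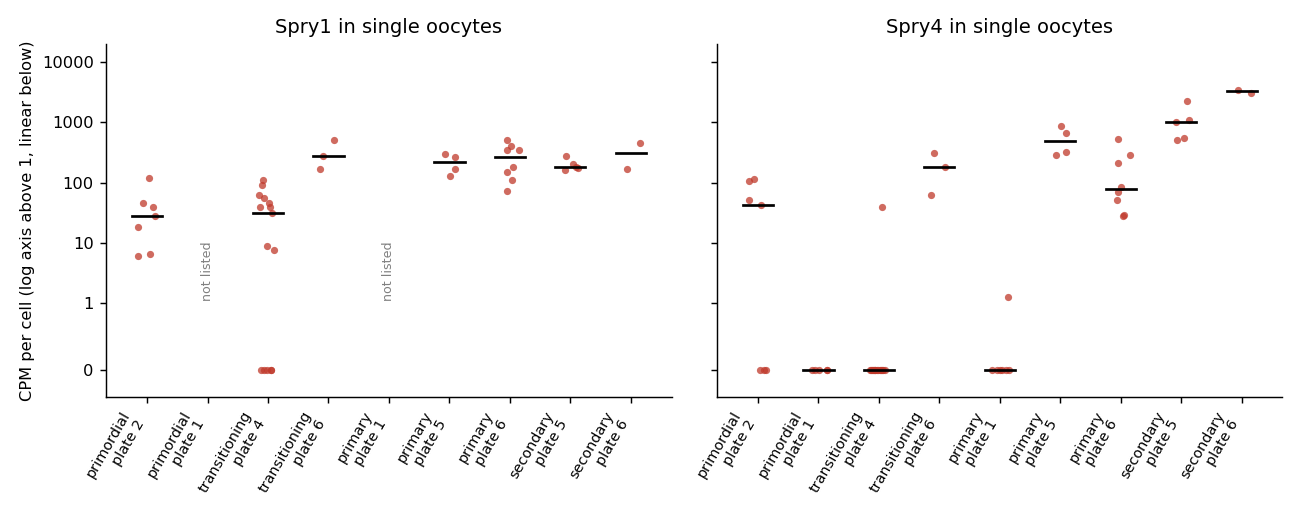
CPM of *Spry1* (left) and *Spry4* (right) in single oocytes (y axis, log scale above 1 and linear below), by follicle stage and library plate (x axis). Points are cells, black lines are medians, and single-cell groups are not drawn. The 2 secondary oocytes of plate 6 reached 3404 and 3098 CPM of *Spry4*, above the 28.01 to 529.9 CPM of the 8 primary oocytes, while *Spry1* overlapped between these stages.

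In somatic cells *Spry4* was found in 22 cells (11.9%, 7.61 to 17.4%), against 30 of 59 oocytes (50.8%, 37.5 to 64.1%). Oocytes were higher on plate 5, with a log2 ratio of 3.36 (3.12 to 3.596), or 3.665 without the primordial oocyte, and on plate 6, by at least 6.64. Of the 587 oocyte counts of plate 6, 437 came from the 2 secondary oocytes. On plate 2 the ratio was 1.01 (0.61 to 1.41), 4.45 without the cells with stroma markers and 0.59, no longer a call, with totals over the genes listed on every plate. On plate 1 somatic cells were higher, at a log2 ratio of -4.61 (-7.68 to -2.70), but all 76 somatic counts stood in 1 primary cell. Among secondary cells of plate 5, 5 of 5 oocytes and 2 of 26 somatic cells had counts, at 1208 and 4.09 CPM.

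*Dusp6*, a phosphatase of the cytoplasm that acts mainly on ERK, was at 0 in all 13 oocytes of plate 1, all 8 of plate 2 and all 15 of plate 4. On plate 5 it had 36 counts in oocytes, of which 35 were in the primordial oocyte and 1 in a secondary oocyte. Somatic cells had 82.05 CPM on plate 1 (10 of 37 cells), 427 CPM on plate 2 (16 of 32), 114.7 CPM on plate 3 (7 of 22), 186.3 CPM on plate 4 (6 of 16) and 276 CPM on plate 5 (33 of 66). The log2 ratio of oocytes to somatic cells was at most -6.56, -8.96 and -7.67 on plates 1, 2 and 4. On plate 5 it was -2.39 (-2.91 to -1.91), and -7.25 without the primordial oocyte. The median depth on plate 2 was 504558 counts per oocyte and 100363 per somatic cell. At 12000 counts per cell, 48.4% of the somatic cells of plate 2 had *Dusp6* counts.

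**Figure D4:**
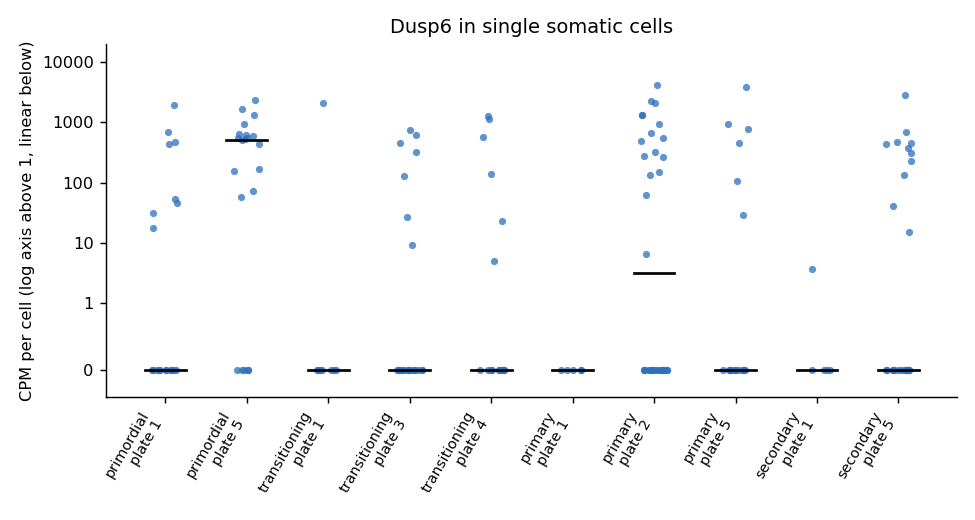
CPM of *Dusp6* in single somatic cells (y axis, log scale above 1 and linear below) by follicle stage and library plate (x axis); points are cells and black lines medians. Primordial cells of plate 5 have the highest share with counts, 16 of 21, and primary cells of plate 1 have none, 0 of 5.

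The cells of plates 1, 2 and 4 carry more than 1 plate code in the deposited metadata, whose meaning is not stated, and most oocytes of these plates have other codes than the somatic cells. On plate 4, 5 of 15 oocytes share the code of the 16 somatic cells. Within shared codes *Spry1* was higher in oocytes of plate 4 by at least 5.74 on the log2 scale, and *Dusp6* lower by a log2 ratio of at most -6.78 on plate 4 and -5.38 on plate 1, where only 3 oocytes share the code, fewer than the 5 cells asked of a group elsewhere. On plate 2, 1 oocyte shares the code of the somatic cells, and no value was taken. On plates 5 and 6 all cells have the same code.

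*Spry2*, which like the other Sprouty genes acts on receptor signals, had 0 counts in every oocyte. Its somatic levels were low, from 0 CPM on plate 6 to 19.2 CPM on plate 5, with 6 of 37, 9 of 32, 2 of 22, 3 of 16, 5 of 66 and 0 of 12 cells on plates 1 to 6. On plate 5, 43 of 63 counts stood in 1 primordial cell, and leaving out the cell with most counts of each group, which also takes out 1 of 10 oocytes, moved the log2 ratio of oocytes to somatic cells from at most -2.12 to at most -0.18. Without the primordial oocyte it was at most -1.82. *Dusp4*, a phosphatase of the nucleus, was found in 12 of 59 oocytes (20.3%, 10.98 to 32.8%) and 14 somatic cells (7.57%, 4.199 to 12.4%). It passed 5 CPM in both types on plate 5 only, at 8.80 CPM in oocytes and 14.6 CPM in somatic cells, a log2 ratio of -0.73 (-2.25 to 0.50), which spans 0, or -0.42 without the primordial oocyte. On plate 6 it was lower in oocytes, at a log2 ratio of -2.88 (-4.93 to -1.23), but 14 of the 15 somatic counts came from 1 cell. The 2 secondary oocytes of plate 6 had 32.3 and 27.8 CPM of *Dusp4*, 2 counts each, and the other 11 oocytes there were at 0, so that secondary oocytes were higher than primary oocytes by at least 2.59 on the log2 scale.

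*Dusp1*, the product of an immediate early gene, acts on ERK, p38 and JNK kinases and has values on plate 5 only. Primordial somatic cells had counts in 18 of 21 cells, with a median of 924 CPM and a highest value of 6168 CPM. Primary cells had counts in 10 of 19, with a median of 33.8 CPM, and secondary cells in 15 of 26, with a median of 334 CPM. The 4 primary oocytes had 0, 76.2, 32.1 and 0 CPM, the 5 secondary oocytes 282.8, 121.5, 133.8, 189.4 and 0 CPM, and the primordial oocyte 498 CPM. Both cell types thus carried *Dusp1*, and single cells overlapped. The summed levels were 167.2 CPM in oocytes and 1015 CPM in somatic cells, a log2 ratio of -2.60 (-2.88 to -2.33), or -3.51 without the primordial oocyte.

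Secondary oocytes of plate 5 had more *Dusp1* than primary oocytes, a log2 ratio of 2.70 (1.54 to 4.10). Of the immediate early genes, 6 could be compared, 3 were higher and 1 was lower in secondary oocytes, against 9.91% higher and 19.5% lower of all genes. *Jun* was at 189.3 and 3.485 CPM, *Fosb* at 49.2 and 13.9 CPM and *Cebpd*, the lower gene, at 8.40 and 18.7 CPM. Immediate early genes together took 0.110% of the counts of 1 secondary oocyte and 0.00595 to 0.0270% in the other 4, which overlaps the 0.00406 to 0.0200% of primary oocytes, and 0.275% of those of the primordial oocyte. Granulosa markers took 0 to 0.0149% in secondary and 0 to 0.0137% in primary oocytes. The part of these genes in the *Dusp1* counts of oocytes was not tested.

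The second comparison asked whether the levels differ between follicle stages. Plate 5 holds 21 primordial, 19 primary and 26 secondary somatic cells. From primordial to primary cells 4 of 6 genes were lower (27.9% of all genes) and none was higher (34.1%). From primordial to secondary cells 5 of 6 were lower (22.8% of all genes) and 1, *Dusp4*, was higher (35.6%). From primary to secondary cells *Spry1* and *Spry4* were lower (21.5%) and *Dusp4* was higher (29.7%), though the interval of *Spry1* (-4.46 to 0.26) spans 0. The median log2 ratio of all genes was 0.27, 0.45 and 0.18 in these comparisons.

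In somatic cells of plate 5 *Dusp6* was highest at the primordial stage, at 439 CPM (403 to 477). It was at 218.1 CPM (186.6 to 253.5) at the primary stage and at 142.3 CPM at the secondary stage. Counts were found in 16 of 21, 6 of 19 and 11 of 26 cells, and the median cell had 516, 0 and 0 CPM. The log2 ratio to primordial cells was -1.01 (-1.26 to -0.76) in primary and -1.62 (-1.88 to -1.38) in secondary cells. Of the counts of primary cells 64.1% came from 1 cell, and without the top cell of each group the ratio was -2.18. With totals over the genes listed on every plate it was -0.41, by the mean CPM of single cells -0.69 and with cells thinned -0.60, none of which is a call. The ratio of secondary cells was -0.98 with cells thinned. Among cells with fewer than 3 stroma markers *Dusp6* was at 524.5 CPM in the 13 primordial cells, at 69.4 CPM in the 16 primary cells and at 81.5 CPM in the 22 secondary cells, with log2 ratios to primordial cells of -2.92 and -2.69. Single cells overlapped between all stages.

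*Dusp1* followed the same order on plate 5, at 1535 CPM (1468 to 1605), 866 CPM (802 to 934) and 564 CPM (523 to 608) from the primordial to the secondary stage. The log2 ratio of secondary to primordial cells was -1.44 (-1.57 to -1.32), and that of primary to primordial cells was -0.83 (-0.95 to -0.70). The 8 primordial cells with stroma markers had 2246 CPM, and the other 13 had 994 CPM. Without cells with stroma markers the ratio of secondary to primordial cells was -0.99 and that of secondary to primary cells -0.07, so the first was no longer called. With totals over the genes listed on every plate it was -0.96. Immediate early genes took a median of 1.65, 1.12 and 0.768% of the counts in the same order. Their part in the *Dusp1* levels was not tested.

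The Sprouty genes of plate 5 somatic cells rested on few cells. *Spry4* was at 86.5 CPM in 5 of 21 primordial, at 132.1 CPM in 5 of 19 primary and at 4.09 CPM in 2 of 26 secondary cells, a log2 ratio of secondary to primordial cells of -4.40 (-6.05 to -3.14). *Spry1* was at 36.6, 8.98 and 2.45 CPM in 2, 1 and 1 cells, and the counts of the first 3 of these cells were in cells with stroma markers. *Spry2* was at 46.8 CPM in primordial cells, from 2 cells, and at 1.28 and 1.64 CPM in primary and secondary cells. *Dusp4* was the only gene of the 6 with its highest level in secondary cells, at 27.8 CPM against 10.1 CPM in primordial and 1.28 CPM in primary cells, with counts in 4 of 26, 3 of 21 and 1 of 19 cells. Thinned to 12000 counts per cell its ratio of secondary to primordial cells fell from 1.46 (0.50 to 2.50) to 0.23.

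**Figure D5:**
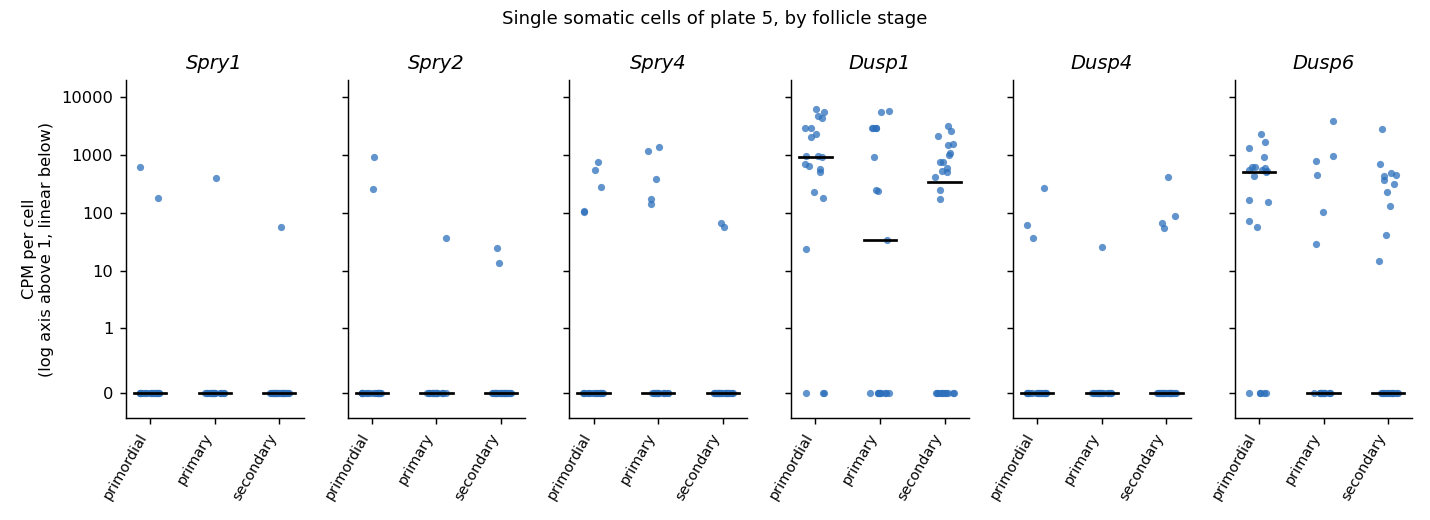
CPM of the 6 genes in single somatic cells of plate 5 (y axis, log scale above 1 and linear below) by follicle stage (x axis); points are cells and black lines are medians. *Dusp1* and *Dusp6* have counts in 18 and 16 of 21 primordial cells, and the Sprouty genes in at most 5 cells of a stage.

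On plate 1, with 19 primordial, 8 transitioning, 5 primary and 5 secondary somatic cells, the level of *Dusp6* was 230.7 CPM in the first group, from 8 cells, and 82.05 CPM in the second, from 1 cell. It was 0 in the primary cells and 0.697 CPM in the secondary cells, from 1 cell. The log2 ratio to primordial cells was -1.49 (-1.85 to -1.15) in transitioning cells, where 1 cell held all 88 counts, at most -6.69 in primary and -8.37 (-13.7 to -5.88) in secondary cells. By the mean CPM of single cells the first ratio turned to 0.44. *Spry2* was called lower in primary and secondary cells and *Spry4* higher in primary than in primordial cells, the latter from 1 cell. The *Spry2* ratio of primary to primordial cells was -1.04 (-2.70 to 0.43), which spans 0. Its 14 primordial counts came from 2 of 19 cells, 10 of them from 1 cell, and its 6 primary counts from 2 of 5 cells. Lower genes made up 47.6, 41.6 and 42% of all genes in these comparisons, and higher genes 28.2, 32 and 33.2%. Against transitioning cells *Dusp6* was lower in primary and secondary cells (33.2 and 33.8% of all genes) and *Spry4* higher in primary cells (42.2%, and 43.3% in secondary cells). *Spry4* was lower in secondary than in primary cells (30.2% lower, 31.4% higher). The median depth was 361900 and 311480 counts per cell in primary and secondary cells and 63070 in primordial cells. *Dusp6* was thus lower in primary and secondary than in primordial somatic cells on both plates that hold these stages, and kept this direction under every alternative tried, though not every call on plate 5.

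On plate 1 the oocyte stages could not be compared, as no gene of the 4 listed passed 5 CPM in primordial or primary oocytes. Of all genes 15.2% were higher and 34.1% lower in primary oocytes there. Across the 9 comparisons of somatic stages on plates 1 and 5, 28 pairs of a gene and a comparison could be compared, of which 19 were lower and 4 higher in the later stage, against 21.5 to 47.6% lower and 28.2 to 43.3% higher of all genes in these comparisons. Comparisons on the same plate share groups and are not independent.

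With all stages of a plate added up, cells with stroma markers had more *Dusp6* and less *Dusp4* on plates 2 and 5. *Dusp1*, listed on plate 5 only, was also higher in such cells there. On plate 2 *Dusp6* was at 1304 CPM in 5 of 5 such cells and at 242.3 CPM in 11 of 27 others. On plate 5 it was at 505 and 206.3 CPM, and *Dusp1* at 2212 CPM in 14 of 15 such cells and 650 CPM in 29 of 51 others. Among primordial cells of plate 5 *Dusp6* went the other way, at 326.5 CPM in the 8 cells with stroma markers and 524.5 CPM in the other 13. *Dusp4* was at 0 CPM in such cells and 3.81 CPM in others on plate 2, and at 1.30 and 18.7 CPM on plate 5. All 11 *Dusp4* counts of plate 2 stood in 1 cell. Both genes went the other way on plate 3, where 1 cell had such markers. The other 21 cells there held all 352 *Dusp6* counts and 18 of the 29 *Dusp4* counts. These groups were set by markers, not by labels, and are not groups of the study.

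Within single somatic cells, Spearman correlations between pairs of the 6 genes ran from -0.11 to 0.42 on plate 2, from -0.31 to 0.24 on plate 3 and from -0.14 to 0.52 on plate 5. Most rest on few cells with counts of both genes, for example 2 of 32 cells for *Spry1* and *Spry2* (0.42) and 4 of 32 for *Spry4* and *Dusp6* (0.41) on plate 2. On plate 5, 26 of 66 somatic cells had counts of both *Dusp1* and *Dusp6*, 17 of *Dusp1* only, 7 of *Dusp6* only and 16 of neither, with a Spearman correlation of 0.31 across cells. *Dusp1* had a correlation of 0.54 with *Jun*, and *Dusp6* of 0.056. All 4 somatic cells of plate 5 with *Spry1* counts also had *Spry4* counts, and 3 of these 4 had *Dusp1* counts. These correlations are descriptions across cells that share library preparation and differ in depth. *Dusp6* was the only gene found in at least 30% of somatic cells on more than 1 plate, namely plates 2 to 5. The mean of another gene leaves out plates that do not list it or where fewer than 30% of somatic cells have it. The genes named were picked as those with the highest means of many. Of 1859 genes ranked, the one most like *Dusp6* was *Nr4a1*, an immediate early nuclear receptor. Its mean Spearman correlation was 0.58 over plates 2 and 4 (0.56 to 0.59), with 32 and 16 cells. *Lgals1*, which encodes galectin 1, followed at 0.46 over the same plates (0.44 to 0.49), and *Sh2b1*, an adaptor of receptor kinases, had 0.44 over plates 3 and 5 (0.37 to 0.50). Others differed widely between plates, *Ociad2* with a mean of 0.45 over plates 4 and 5 (0.12 to 0.79) and the clone-named gene RP23-293K21.3 with 0.41 over plates 2, 3 and 4 (0.14 to 0.73).

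Other genes of the pathway, from lists made for this comparison, are given for oocytes against somatic cells of each plate. The counts for oocytes against somatic cells stand beside the shares of all genes compared. On plates 1, 2, 4, 5 and 6, 43.2, 60.9, 54.2, 47.8 and 52.7% of all genes were lower in oocytes. Higher were 26.9, 23.2, 26.9, 21.6 and 22.3%. Of the other feedback inhibitors, 5 of 12 compared were higher and 4 lower in oocytes on plate 1, none of 4 and 3 on plate 2, 2 of 6 and 4 on plate 4, 2 of 8 and 5 on plate 5, and 1 of 5 and 2 on plate 6. *Dusp14* was higher in oocytes of plate 1 by 2.72 (2.45 to 3.01) on the log2 scale, and *Errfi1*, an inhibitor of EGF receptors, was at 207.1 CPM in oocytes and 72.01 CPM in somatic cells. *Dusp5*, a nuclear phosphatase of ERK, was at 125.5 and 32.97 CPM on plate 6, but at 4.94 and 61.4 CPM on plate 1. *Il17rd*, which encodes the FGF inhibitor SEF, was higher in oocytes of plate 5 by 1.68 (1.38 to 1.99), and *Lrig1*, which restrains EGF receptors, was at 285 and 133.8 CPM on plate 4. *Dusp3* was lower in oocytes on all 5 plates, for example at 1.83 against 68.01 CPM on plate 4.

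Receptors differed by gene. *Kit* was at 1880 CPM in oocytes and 29.03 CPM in somatic cells of plate 1, and *Fgfr1* at 321 and 98.95 CPM on plate 5. *Erbb2* was at 0 in oocytes of plates 1 and 4, against 631 and 3066 CPM in somatic cells, and *Egfr* at 39.7 and 314 CPM on plate 2. Of the receptors compared, 1 of 5 was higher and 4 lower in oocytes on plate 1, none of 6 and 6 on plate 2, none of 2 and 2 on plate 4, 2 of 6 and 4 on plate 5 and none of 3 and 3 on plate 6. Among ligands, *Fgf8* was at 581 CPM in oocytes and 0.573 CPM in somatic cells of plate 2, and *Kitl*, the ligand of KIT, at 0.609 and 574 CPM on plate 4. *Igf1* was at 0.305 and 1212 CPM there. *Kitl* is also among the genes by which the authors filtered cells. Ligands higher and lower in oocytes were none and 2 of 3 on plate 1, 2 and 2 of 5 on plate 2, none and 5 of 5 on plate 4, 1 and 3 of 7 on plate 5, and none and 3 of 4 on plate 6.

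Genes that respond to ERK were mostly lower in oocytes, as were 43.2 to 60.9% of all genes compared on these plates. None of 12 compared was higher and 10 were lower on plate 1, 1 of 9 and 7 on plate 2, 1 of 10 and 8 on plate 4, 1 of 10 and 9 on plate 5, and none of 6 and 4 on plate 6. Their median log2 ratio ran from -6.77 on plate 4 to -3.12 on plate 6, below the -1.42 and -1.29 of all genes on these plates. *Myc* was at 0 in oocytes and 1788 CPM in somatic cells of plate 4, and *Ier2* at 36.3 and 4144 CPM there. *Spry1* had the opposite direction on this plate, at 39.3 and 0 CPM. Core proteins of the ERK chain differed less on plate 1, where 2 of 10 were lower and none higher, with a median of -0.14. On the other plates 1 of 2 was higher and 1 lower on plate 2, 2 of 2 were lower on plate 4, 4 of 5 on plate 5 and 4 of 5 on plate 6. Immediate early genes, several of which respond to dissociation, were lower in oocytes in 12 of 12, 9 of 10, 8 of 9, 10 of 10 and 6 of 6 cases on plates 1, 2, 4, 5 and 6, and higher in none. *Fos*, *Egr1* and *Ier2* are on this list and on that of ERK-responsive genes, so the counts of these lists are not separate.

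In somatic cells of plate 5, ERK-responsive genes lower than in primordial cells were 4 of 10 in primary and 5 of 10 in secondary cells, and none was higher. Of all genes 27.9 and 22.8% were lower and 34.1 and 35.6% higher in these comparisons. The median log2 ratios of ERK-responsive genes were -0.46 and -1.28, against 0.27 and 0.45 of all genes. In the order of the stages *Ier3* was at 622, 130.9 and 71.2 CPM, and *Dusp5* at 166.9, 16.7 and 22.9 CPM. Of the other feedback inhibitors 5 of 8 were lower in primary, and 4 lower and 1 higher in secondary cells, beside the same shares of all genes. *Igf1* went the other way, at 280, 1033 and 1445 CPM.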

How the data were processed

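Reads were aligned by the authors to GRCm38, and the submitters' processing notes name Seurat 4. The counting tool is not given in the sources used here. Values in the deposited table are estimated counts of each gene in each cell, not normalized. All values of the 6 genes are whole numbers. From the deposited cell metadata, the library plate, plate code and stage were used, together with the authors' fraction of reads on rRNA, total counts and shares of mitochondrial and duplicate reads as checks. These differed between groups. On plate 5 median rRNA was 23.07 to 29.78% in somatic groups, 4.912% in primary and 7.894% in secondary oocytes. Duplicates there were 29.7 to 33.63%, 12.42% and 12.81%. The primordial oocyte had 21.99% rRNA and 29.68% duplicates. On plate 1 median rRNA was 32.45% in primordial and 15.51% in primary somatic cells. The part of quality in the ratios was not tested. No column of per-cell values was left out as belonging to another series.

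Of 25149 rows, 27 are named as dates and were left out (0.0743% of the counts). For each cell type and stage of a plate, counts were added up over its cells and divided by the total of all genes the plate lists. Groups needed at least 5 cells. Intervals are exact Poisson (sums), exact binomial (shares) and from the binomial split of 2 sums (ratios), at 95%. Where all cells of a group were at 0, a floor of 3 counts for the whole group gave a bound. No ratio was taken with at most 3 counts in both groups. Spearman correlations used log2(CPM + 1) in somatic cells of plates with at least 15, over genes found in at least 30% of them.

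Alternatives were TMM and DESeq2 size factors, totals over genes on every plate, mean CPM of cells, thinning, and leaving out top cells, cells with conflicting stage labels or, chosen after seeing the data, cells with stroma markers, cells of unshared plate codes or the primordial oocyte of plate 5. No test was run. The 6 genes, the gene lists and the rules were chosen with earlier results of these data known. The named genes are the 6 and examples from the lists, and *Amh*, *Ergic1* and the genes most like *Dusp6* are named as well. The rule for examples was at most 4 called genes of a list, of the highest CPM. It was not kept for the other feedback inhibitors, of which 6 are named. Positions are from GENCODE M21. The ratio calculation was tested on simulated counts. Python 3.11.15, numpy 2.4.6, pandas 2.3.3, scipy 1.17.1, matplotlib 3.10.9, R 4.3.3, edgeR 4.0.16 (TMM) and DESeq2 1.42.0 (size factors) were used.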

Additional observations from a re-analysis of the deposited data

Results flagged for a closer look

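In groups of 4 to 10 cells, 22 sets of values of a gene with counts were checked for a cell that lies far from the others of its group by Dixon's ratio, and 10 had one. Chance gives about 1 in 20 for normally distributed values, and counts with many zeros are not distributed in this way. Where only 1 cell of a group has counts, the ratio is always 1, so such a cell is flagged whatever its level. In 8 of these sets a single cell had counts and the others none: *Dusp6* at 2102 CPM in 1 of 8 transitioning somatic cells of plate 1, *Spry4* at 199.9 CPM in 1 of 5 primary somatic cells of plate 1, *Dusp4* at 183.8 CPM in 1 of 7 primary oocytes of plate 1, from 1 count, *Dusp6* at 14.9 CPM in 1 of 5 secondary oocytes of plate 5, *Spry2* at 13.9 CPM in 1 of 8 transitioning and at 10.8 CPM in 1 of 5 secondary somatic cells of plate 1, *Dusp6* at 3.59 CPM in 1 of 5 secondary somatic cells of plate 1, and *Spry4* at 1.25 CPM in 1 of 7 primary oocytes of plate 1. In primary somatic cells of plate 1, *Spry2* was at 42.3 CPM in 1 cell and at 5.26 CPM in the next. In primordial oocytes of plate 2, *Spry1* was at 119.4 CPM in 1 cell and at 46.4 CPM in the next, and all 7 had counts. The causes were not tested.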

How the results depend on the processing

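Of 54 ratios that were called, 355 values under other settings kept their direction in 353, and 38 ratios stayed called under every setting that gave a value. A ratio left with too few counts gave no value and is not among the 355, which favours agreement. Of 74 ratios, called or not, thinning gave a value for 53 and leaving out top cells for 55. The 2 of the 355 values that turned are *Dusp6* in transitioning over primordial somatic cells of plate 1. They were 0.44 by the mean CPM of single cells and 1.03 with cells thinned to 12000 counts, where 1 transitioning cell holds all counts. With cells thinned, or with the cell of most counts left out of each group, fewer pairs of a gene and a comparison were called. Pairs lower in oocytes than in somatic cells numbered 6 and 6 rather than 10, and those lower within the same stage 4 and 4 rather than 7. Pairs lower in later somatic stages numbered 12 and 12 rather than 19, and those higher there 1 and 2 rather than 4. Both settings leave fewer counts. TMM and DESeq2 size factors raised the ratios of all oocytes to all somatic cells of a plate by 0.14 to 1.37 on the log2 scale, and totals over the 13266 genes listed on every plate moved them by -0.42 to -0.07. Within the same stage the shifts ran from -0.14 to 0.97 with size factors and from -0.72 to 0.38 with those totals. No paired analysis was possible because the results come from no test and the replicate numbers of cells name no animal. Intervals cover counting error only.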
